A study of Mus musculus with 4 samples.

Results

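Ttn, Neb, Ryr2 and Eno3 are 4 genes best known from striated muscle that had reads in regulatory T cells (Tregs) in these 4 libraries. The members were chosen by their total exon reads in the genotype contrast. They were taken by feature ID, 4 genes of the 37583 listed features, and all 4 passed the filter on low counts that left 11113 genes for testing. Tregs are the CD4 T cells that hold back immune responses, and they are marked by the transcription factor Foxp3. They were sorted as CD4+Foxp3+ cells from C57BL/6 mice aged 8 weeks, and no treatment is given. The WT group held 1 library from the spleen and 1 from the tracheal lymph nodes, and the Csnk2b-deficient group held the same. The genotype of the Csnk2b-deficient group is given as Csnk2b-/-, and Csnk2b encodes the regulatory subunit of protein kinase CK2. The label "giant" held for Ttn, Neb and Ryr2 and not for Eno3, and the 4 genes did not move together: Ttn and Neb were higher, and Ryr2 and Eno3 lower, in Csnk2b-deficient Tregs of both tissues.

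In striated muscle, titin (Ttn) spans from the edge to the middle of the contractile unit, the sarcomere, and acts as a molecular spring. Nebulin (Neb) lies along the actin filament and stabilises it. The ryanodine receptor RYR2 is the channel that releases calcium from internal stores in heart muscle cells, and enolase 3 (Eno3) is the muscle form of the glycolytic enzyme that makes phosphoenolpyruvate. T cells use the same chemistry with other members of these families, inositol trisphosphate receptors for store release and enolase 1 for glycolysis.

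Ttn lay on chromosome 2 from 76542037 to 76820604 in the mm9 build and had an exon length of 116828 bases, the longest of the 28032 features with exons. Neb, also on chromosome 2 (51992167 to 52194318), had 26369 exon bases and ranked 12th. Ryr2 on chromosome 13 (11645370 to 12199212) had 18191 exon bases and ranked 55th. Eno3 on chromosome 11 (70470704 to 70476015) had 1689 exon bases, and 39.0% of features had shorter exons.

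The 300 bases around the annotated starts of Ttn, Ryr2 and Eno3 (250 before and 50 after, RefSeq, GRCm38.p6) are shown. Ttn, the gene higher in Csnk2b-deficient Tregs by the largest ratio, can thus be read beside the 2 that were lower. Neb, which was also higher, had no window in the promoter reference and is not shown. The windows are chr2:76982498-76982797 on the minus strand for Ttn, chr13:12106896-12107195 on the minus strand for Ryr2 and chr11:70656926-70657225 on the plus strand for Eno3. Capitals mark matches to the E-box CANNTG, the MEF2 consensus and TATAA, searched on both strands together with the CArG box and TATAAA, which contains TATAA. No marked match overlapped another.
Ttn: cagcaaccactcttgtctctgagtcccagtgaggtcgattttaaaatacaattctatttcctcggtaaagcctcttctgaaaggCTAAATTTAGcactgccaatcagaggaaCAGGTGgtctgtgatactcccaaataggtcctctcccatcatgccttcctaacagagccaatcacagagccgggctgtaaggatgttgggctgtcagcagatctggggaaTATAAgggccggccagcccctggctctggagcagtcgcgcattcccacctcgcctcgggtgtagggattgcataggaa
Ryr2: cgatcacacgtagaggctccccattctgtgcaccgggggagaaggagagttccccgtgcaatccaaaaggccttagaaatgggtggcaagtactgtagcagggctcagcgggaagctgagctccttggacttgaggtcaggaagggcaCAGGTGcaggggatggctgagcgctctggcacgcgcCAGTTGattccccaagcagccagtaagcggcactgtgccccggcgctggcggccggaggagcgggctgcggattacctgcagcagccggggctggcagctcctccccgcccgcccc
Eno3: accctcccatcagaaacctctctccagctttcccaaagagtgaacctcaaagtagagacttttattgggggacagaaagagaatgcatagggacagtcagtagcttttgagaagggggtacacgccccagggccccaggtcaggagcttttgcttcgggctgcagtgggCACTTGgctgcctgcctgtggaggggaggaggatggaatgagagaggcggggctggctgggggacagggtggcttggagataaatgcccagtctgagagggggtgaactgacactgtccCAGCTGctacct
The Ttn window held 1 MEF2 match, CTAAATTTAG, which 3.19% of 32851 promoter windows of this length held, and 1 TATAA, held by 24.9%. It also held 1 E-box, while the Ryr2 and Eno3 windows held 2 each, and 72.3% of all windows held at least 1. None of the 3 windows matched the CArG box or TATAAA, which 1.63% and 13.6% of windows held. A match is a description of letters, and where transcription began in these cells was not measured.

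Exon reads totalled 4737814 to 6750695 per library, and 12157 to 15515 genes had at least 1, with the fewest genes in the WT lymph node library. Each genotype and tissue had 1 library, so the 2 libraries of a genotype are not like replicates, and with 1 residual degree of freedom each SE rests mostly on spread shared over all genes. Csnk2b, the targeted gene, was lower in both Csnk2b-deficient libraries (25.6 and 62.0 CPM) than in the WT libraries of the same tissue (82.3 and 163 CPM). Its reads were thus reduced and not absent, and edgeR did not call it between genotypes (adjusted p = 0.0658). CPM is exon reads per 1000000 reads of library size, scaled with TMM factors. Paired values are given for WT first and Csnk2b-deficient second. Of 10 Treg markers all 10 were measured, with a summed level of 4739 to 10512 CPM. Foxp3 itself had 6395 reads (811 CPM) in the WT and 2160 (374 CPM) in the Csnk2b-deficient spleen library. For the lymph node pair it had 2334 (570 CPM) and 562 (123 CPM), and 25.9% of its exon reads were placed uniquely. It was the 1 marker of the 10 that edgeR called between genotypes (adjusted p = 0.0375), compared with 0.144% of all genes. In bulk libraries, fewer cells carrying a transcript and less of it per cell cannot be told apart.

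Counted over all tested genes, 7.18% had both Csnk2b-deficient libraries above both WT libraries and 7.08% had both below. Of the 4 genes, Ttn and Neb were above and Ryr2 was below, and these counts follow from how the genes were chosen. The WT lymph node library was the lowest of the 4 libraries for Ttn and Neb and the highest for Ryr2 and Eno3.

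Titin transcripts were more abundant in Csnk2b-deficient Tregs of both tissues. Ttn had 742 exon reads (94.1 CPM) in the WT and 2379 (412 CPM) in the Csnk2b-deficient spleen library, and 151 (36.9 CPM) and 2085 (457 CPM) for the lymph node pair. Both Csnk2b-deficient libraries were above both WT libraries, and they differed little from each other, while the WT lymph node library was the lowest of the 4. The ratio was 4.37 in spleen Tregs (95% exact binomial interval 4.03 to 4.75) and 12.4 in lymph node Tregs (10.5 to 14.7), with intervals that cover counting error only. The log2 fold change over both tissues was 2.85 ± 0.33 (SE, n = 2 per genotype), given without a test because this contrast chose the gene.

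Nebulin transcripts were also more abundant in Csnk2b-deficient Tregs, by smaller ratios than Ttn. Neb had 1290 reads (164 CPM) in the WT and 1374 (238 CPM) in the Csnk2b-deficient spleen library. For the lymph node pair the counts were 240 (58.7 CPM) and 1078 (236 CPM). The Csnk2b-deficient libraries were almost level, and the genotypes did not overlap, with the WT lymph node library again the lowest. The ratio was 1.45 in spleen Tregs (1.35 to 1.57) and 4.03 in lymph node Tregs (3.50 to 4.65), and the joint log2 fold change was 1.25 ± 0.32 (n = 2 per genotype, SE).

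Ryr2 was nearly absent from Csnk2b-deficient Tregs. It had 70 reads (8.88 CPM) in the WT and 9 (1.56 CPM) in the Csnk2b-deficient spleen library, and 176 (43.0 CPM) and 3 (0.658 CPM) for the lymph node pair. The genotypes did not overlap, and the WT lymph node library was the highest. WT exceeded Csnk2b-deficient 5.70 times in spleen Tregs (2.84 to 13.0) and 65.4 times in lymph node Tregs, where 3 reads left a counting interval of 22.0 to 320. The joint log2 fold change was -4.07 ± 0.90 (n = 2 per genotype, SE). Raw counts of reads in Ryr2 introns were also lower, 25 in the WT and 13 in the Csnk2b-deficient spleen library, and 90 and 14 for the lymph node pair. These counts are not scaled for depth. Gene reads over all genes were 8752431 and 6415109 for the spleen pair, and 6109388 and 7010465 for the lymph node pair. Whether intron reads fell in spleen Tregs beyond depth and counting error was not tested.

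Eno3 was lower in Csnk2b-deficient Tregs, by a larger ratio in the lymph node pair. It had 246 reads (31.2 CPM) in the WT and 129 (22.3 CPM) in the Csnk2b-deficient spleen library, compared with 743 (182 CPM) and 218 (47.8 CPM) in lymph node Tregs. The genotypes overlapped, since the Csnk2b-deficient lymph node library lay above the WT spleen library. WT exceeded Csnk2b-deficient 1.40 times in spleen Tregs (1.13 to 1.74) and 3.80 times in lymph node Tregs (3.26 to 4.44), with a joint log2 fold change of -1.23 ± 0.36 (SE, n = 2 per genotype). Without the WT lymph node library, in a fit without the tissue term, the Eno3 log2 value was 0.20.

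**Figure D1:**
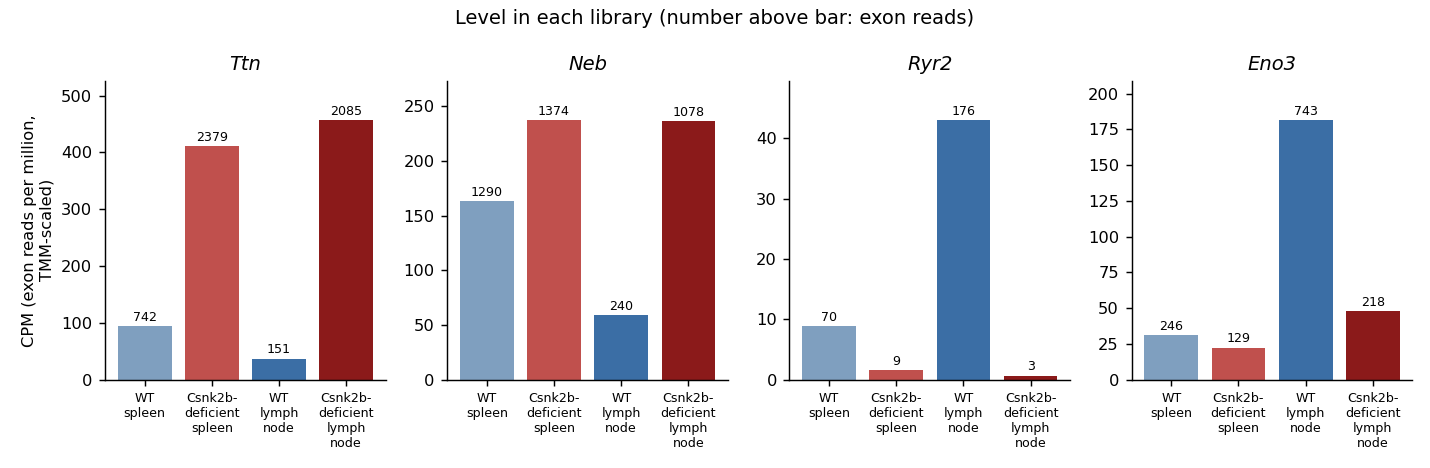
Level of each gene in CPM (y axis, separate scale for each gene) in the 4 libraries (x axis, 1 bar per library, no error bar because each bar is 1 library), with the exon reads above each bar. Ttn and Neb are highest in the Csnk2b-deficient libraries, at 412 and 457 CPM and at 238 and 236 CPM, while Ryr2 and Eno3 peak in the WT lymph node library at 43.0 and 182 CPM.

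Per kilobase of exon, Eno3 was the most abundant of the 4 genes in every library and Neb came next in 3 of them. Eno3 had 18.5 CPM per kilobase in the WT and 13.2 in the Csnk2b-deficient spleen library, and 108 and 28.3 for the lymph node pair. In WT lymph node Tregs that level exceeded the level of 93.6% of tested genes. Neb had 6.20 and 9.01 CPM per kilobase in spleen Tregs and 2.22 and 8.96 in lymph node Tregs, and in the Csnk2b-deficient libraries it lay above 49.5% and 53.4% of tested genes. Ttn, for all its reads, had 0.806 and 3.52 CPM per kilobase in spleen Tregs and 0.316 and 3.91 in lymph node Tregs. Ryr2 had 0.488 and 0.0856 in spleen Tregs and 2.36 and 0.0362 in lymph node Tregs, where its WT level was close to that of Neb.

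Reads that cross an exon-exon junction come from spliced RNA, and all 4 genes had them in all 4 libraries. Of Neb exon reads, 401 of 1290 (31.1%) and 435 of 1374 (31.7%) crossed a junction in the WT and Csnk2b-deficient spleen libraries, and 85 of 240 (35.4%) and 319 of 1078 (29.6%) for the lymph node pair. For Eno3 these were 77 of 246 (31.3%) and 43 of 129 (33.3%), and 226 of 743 (30.4%) and 72 of 218 (33.0%). Their shares were level across genotype and tissue, within overlapping 95% exact binomial intervals for each gene.

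Ryr2 had 17 junction reads of 70 (24.3%) in WT spleen Tregs and 42 of 176 (23.9%) in the WT lymph node. In the Csnk2b-deficient libraries 2 of 9 and 2 of 3 reads crossed a junction, with intervals of 2.81% to 60.0% and 9.43% to 99.2%, so a difference in splicing was not detectable at this depth. Ttn had the lowest shares, 59 of 742 (7.95%) and 207 of 2379 (8.70%) in spleen Tregs and 17 of 151 (11.3%) and 272 of 2085 (13.0%) in lymph node Tregs.

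Junction shares rose with the number of exons per kilobase over all genes, and Ttn had the fewest exons per kilobase, 3.34, compared with 5.83 in Ryr2, 6.98 in Neb and 12.4 in Eno3. Among genes with fewer than 4 exons per kilobase and at least 50 exon reads, the median share was 8.75% and 9.07% in the WT and Csnk2b-deficient spleen libraries and 5.21% and 5.82% in the lymph node libraries. Ttn thus lay near that median for the spleen pair and above it for the lymph node pair. The class holds all genes below 4 exons per kilobase, and Ttn at 3.34 is near its upper edge, so its median is a loose comparison. For genes with 6 to 8 exons per kilobase the medians were between 21.6% and 25.3%, and Neb was above them in all 4 libraries. For 4 to 6 exons per kilobase, the class of Ryr2, the WT medians were 19.1% in spleen Tregs and 14.4% in lymph node Tregs. For 8 or more, the class of Eno3, medians were 27.8% to 29.5%.

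**Figure D2:**
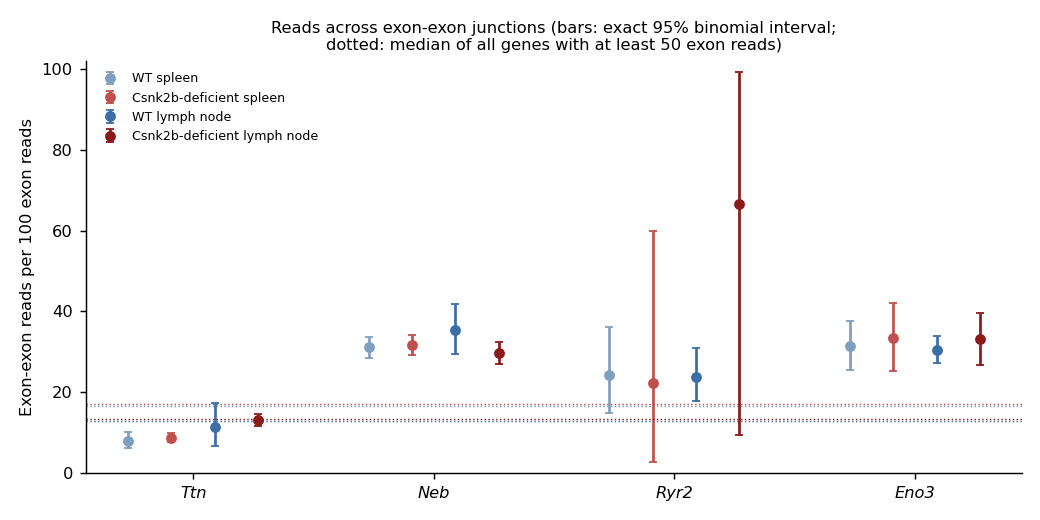
Exon-exon reads per 100 exon reads (y axis) for each gene (x axis) in each library (colour), with exact 95% binomial intervals, and the median of all genes with at least 50 exon reads as a dotted line per library. Neb and Eno3 sit near 30 in all 4 libraries and Ttn between 7.95 and 13.0, while the Ryr2 intervals of the Csnk2b-deficient libraries are wide because they rest on 9 and 3 exon reads.

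Exons were read more densely than introns in all 4 genes and all 4 libraries. For Ttn the exon density per kilobase was 31.6 and 39.0 times the intron density in the WT and Csnk2b-deficient spleen libraries, and 10.2 and 22.0 times for the lymph node pair. The ratios for Neb were 77.9 and 63.9 in spleen Tregs and 26.1 and 42.4 in lymph node Tregs. The medians over all genes with at least 50 exon reads were 21.2, 20.3, 36.5 and 27.9 in the same order of libraries. Ttn and Neb therefore lay above the median in spleen Tregs, and in the WT lymph node library both lay below it.

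Ryr2 had density ratios of 81.4 in WT spleen and 57.4 in WT lymph node Tregs, and of 20.7 and 7.11 in the Csnk2b-deficient libraries. Exon reads made up 70 of 95 gene reads (73.7%) and 176 of 266 (66.2%) in WT. In the Csnk2b-deficient libraries they were 9 of 22 (40.9%, exact interval 20.7% to 63.6%) and 3 of 17 (17.6%, 3.80% to 43.4%), so most of the few reads left lay in introns.

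Eno3 had the lowest exon to intron density of the 4 genes in spleen Tregs. Its density ratio was 9.53 in the WT and 15.02 in the Csnk2b-deficient spleen library and 103 and 62.5 in the lymph node libraries. Reads that cross an intron-exon boundary were 26 of 246 (10.6%) and 10 of 129 (7.75%) in spleen Tregs, where the median over genes was 1.37% in both libraries, and 11 of 743 (1.48%) and 4 of 218 (1.83%) in lymph node Tregs. This difference ran between the tissues in both genotypes. Per the labels' protocols the samples were prepared with 2 kinds of kit, and if they went with tissue, kit and tissue cannot be told apart. For Ttn, Neb and Ryr2 intron-exon reads were between 0 and 2.50% of exon reads.

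**Figure D3:**
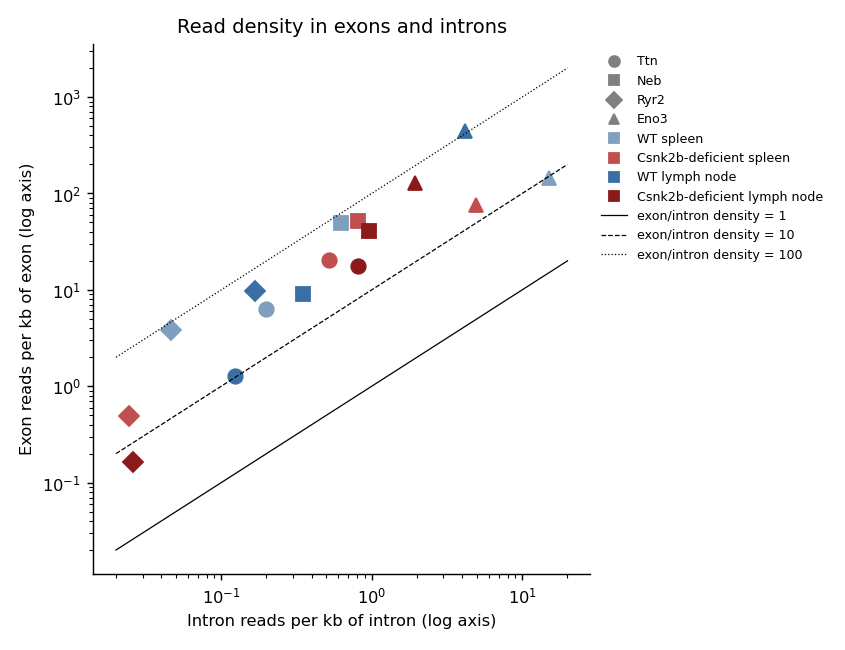
Exon reads per kilobase of exon (y axis, log) against intron reads per kilobase of intron (x axis, log), 1 point per gene (symbol) and library (colour), with lines of equal exon to intron density ratio at 1, 10 and 100. The points with the lowest ratios are Ryr2 in the Csnk2b-deficient lymph node library at 7.11 and Eno3 in the WT spleen library at 9.53, and every point lies above a ratio of 1.

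Every exon read of Neb, Ryr2 and Eno3 was placed uniquely, and only Ttn had reads with more than 1 placement. Its uniquely placed share was 65.1% in the WT and 56.1% in the Csnk2b-deficient spleen library, and 85.4% and 66.4% for the lymph node pair, compared with a median of 100% over genes in each library. Uniquely placed Ttn reads numbered 483 and 1335 for the spleen pair and 129 and 1385 for the lymph node pair, which gave ratios of 3.77 and 9.63. Reads placed more than once numbered 259 and 1044, and 22 and 700, with ratios of 5.50 and 28.5, the latter from 22 WT reads. The higher Ttn level in Csnk2b-deficient Tregs was thus present in the unique reads alone and was larger in the others.

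Nearly all Ttn junction reads were unique. Of unique Ttn exon reads, 59 (12.2%) and 205 (15.4%) crossed a junction in spleen Tregs and 17 (13.2%) and 270 (19.5%) in lymph node Tregs. Of non-unique reads these were 0 of 259 and 2 of 1044, and 0 of 22 and 2 of 700, where 0 of 259 leaves an upper limit of 1.41% and 0 of 22 one of 15.4%. Among genes with at least 50 non-unique reads and 10 exons, 31.1% to 38.5% had a junction share under 1% in their non-unique reads. The median share of these genes was 2.99% to 3.66% by library, and the upper quartile 21.2% to 23.0%. Pooled over all genes, 19.9% to 20.9% of non-unique exon reads crossed a junction.

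Repeated sequence made up little of the annotated titin transcript. In the longest Ttn transcript of GENCODE vM21 (106824 bases, 347 exons, GRCm38), 0.710% of windows of 50 bases recurred within it and 0.198% occurred in transcripts of another gene, which was Gm13938. Gm13938 is the listed feature inside the Ttn span, and it had 1, 6, 0 and 1 exon reads in the 4 libraries, none unique. Copies elsewhere in the genome were not searched, the read length is not stated, and the deposited exon length exceeds this transcript. In Neb 4.36% of windows recurred within its longest transcript, and its reads were all counted as unique. The median coverage of Ttn exons was 0 in all 4 libraries. With 20.4 reads per kilobase in the Csnk2b-deficient spleen library, this was shared by 38.7% of genes with 15 to 25 reads per kilobase.

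**Figure D4:**
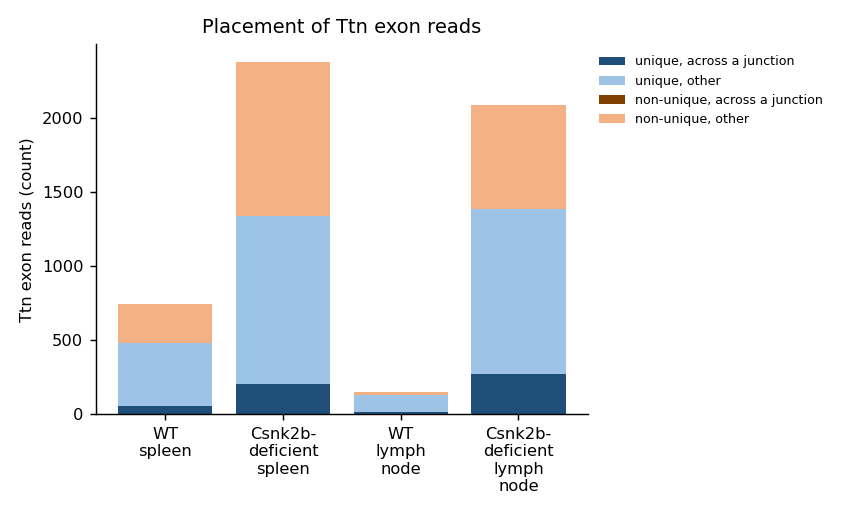
Ttn exon reads (y axis, count) in each library (x axis), split by placement and by whether they cross an exon-exon junction. Unique reads number 483 and 1335 for the spleen pair and 129 and 1385 for the lymph node pair (WT, then Csnk2b-deficient), and the non-unique reads that cross a junction, 2 in each Csnk2b-deficient library, are too few to see.

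Most other genes of the sarcomere had few or no reads. Of 29 listed sarcomere scaffold genes, 6 passed the filter and 10 had 0 reads in all 4 libraries, among them Mybpc1, Myot and Trim63, and 0 reads allow up to 3, or 0.380 to 0.733 CPM by library. Tcap, which caps titin at the sarcomere edge, had 1 read in all. Capn3, a protease that binds titin in muscle, was an exception with 280 and 115 reads in the WT and Csnk2b-deficient spleen libraries and 435 and 336 in lymph node Tregs. The genotype test of edgeR called 1 of the 6, Ttn itself, compared with 0.144% of all genes (16 of 11113; 0.126% higher and 0.018% lower, and 4.88% at an unadjusted p below 0.05), which says nothing further about the gene since this contrast chose it. An unadjusted edgeR p below 0.05 was found for 3 of the 6 (50%), Ttn, Neb and Capn3, compared with 4.88% of all genes. This contrast chose Ttn and Neb, so the share of 50% follows from that choice. Of the 4 other tested genes only Capn3 had such a p. DESeq2 called 2 (33.3%), Ttn and Neb, compared with 0.45% of all genes, and this contrast chose both. Capn3 was lower in Csnk2b-deficient Tregs of both tissues, with a log2 fold change of -0.68 and an edgeR adjusted p of 0.890. Without Ttn and Neb, the median genotype log2 fold change of the 4 other tested genes was 0.073, beside 0.0087 over all genes.

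Nebl encodes nebulette, a shorter protein of the nebulin family. It had 40 and 71 reads for the spleen pair and 5 and 29 for the lymph node pair, with a log2 fold change of 1.75 and an edgeR adjusted p of 0.890. Cmya5 had 51 and 28, and 37 and 33 reads, and Actn2, the muscle alpha-actinin, 24 and 11, and 9 and 33.

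Most markers of whole muscle cells had few or no reads. Of 29 skeletal muscle markers, 12 had 0 reads in every library, including Acta1, Myh1, Myh4, Mb, Myog and Myod1, and the summed level of all 29 was 35.5 and 37.2 CPM in the WT and Csnk2b-deficient spleen libraries and 39.6 and 30.3 CPM in lymph node Tregs. Of the 7 that were tested edgeR and DESeq2 each called 0 between genotypes, 0 had an unadjusted p below 0.05, and the median log2 fold change was 0.15. Over all genes edgeR called 0.144% and DESeq2 0.45%, and 4.88% had an unadjusted edgeR p below 0.05. Mylpf, a myosin light chain gene, made up much of that sum with 123, 65, 90 and 63 reads in the same order of libraries. Of the 7 tested, Myh3 (15, 42, 0 and 8 reads) and Pgam2 (14, 20, 0 and 7) were higher in Csnk2b-deficient Tregs of both tissues. Mylpf and Tnnt1 were lower in both. These were 28.6% each way, compared with 27.7% higher and 29.2% lower over all genes. Of 15 cardiac markers 8 were at 0 in all libraries, including Myh7, Nppa and Pln, and the sum was 1.71 to 7.61 CPM. Smooth muscle markers summed to 22.6 and 25.8 CPM in spleen Tregs and 77.5 and 48.2 CPM in lymph node Tregs. Of these, Actg2 had the most reads, and Myh11 had at most 3 in any library.

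Markers of other blood cells differed between libraries. The myeloid list (10 genes listed) summed to 14.0 and 10.6 CPM in the WT and Csnk2b-deficient spleen libraries and to 46.2 and 312 CPM in lymph node Tregs, where Lyz2 had 187 and 1291 reads, and S100a8, S100a9 and Mpo were at 0. In that lymph node pair Csf1r had 0 and 38 reads, Emr1 0 and 15, Itgam 2 and 13, and Cd68 0 and 13.8 CPM. For the spleen pair Csf1r (12 and 3 reads), Emr1 (5 and 0) and Itgam (45 and 16) ran the other way. Lyz2 (2.54 and 3.29 CPM) and Cd68 (3.55 and 3.98 CPM) did not, and were slightly higher in the Csnk2b-deficient spleen library. B cell markers summed to 15.7 and 17.0 CPM in spleen Tregs and 148 and 99.8 CPM in lymph node Tregs, with Pax5 at 0. CD8 T and NK cell markers were 26.3 and 17.6, and 56.9 and 53.1 CPM. The stromal, endothelial and epithelial list was 171 and 135, and 227 and 265 CPM, with Col3a1, Pdgfra and Krt8 at 0. Pecam1 alone made up most of each of these sums, at 146 and 101, and 224 and 248 CPM. The part of these cells in the values of the 4 genes was not tested. The Ttn ratio was 4.37 in the spleen pair, where the myeloid sum was 14.0 and 10.6 CPM, and 12.4 in the lymph node pair, where it was 46.2 and 312 CPM.

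The other calcium release channel genes that were tested had smaller genotype differences than Ryr2. Ryr3 had 86 and 105 reads in the WT and Csnk2b-deficient spleen libraries and 4 and 31 in lymph node Tregs, which is the opposite direction to Ryr2, with a log2 fold change of 1.57 and an edgeR adjusted p of 0.890. Ryr1, the channel of skeletal muscle, had 4, 4, 4 and 0 reads. The inositol trisphosphate receptor genes Itpr1, Itpr2 and Itpr3 had log2 fold changes of 0.20, -0.21 and -0.63. Of the 15 tested genes of this list, Ryr2 among them, edgeR called 0 in either direction at an adjusted p below 0.05, 1 had an unadjusted p below 0.05 and DESeq2 called 1. Both were Ryr2 itself, which this contrast chose. Over all genes edgeR called 0.144%, 4.88% had an unadjusted p below 0.05 and DESeq2 called 0.45%. The median log2 fold change of the 14 others was 0.040. Trdn and Casq2, whose proteins work with ryanodine receptors in muscle, were at 0, and the muscle junctophilin genes Jph1 and Jph2 had 1 read each, while Fkbp1a, which is expressed widely, had at least 300 reads in every library.

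Eno3 differed from the enolase that T cells mainly use. Eno1 had 2747 and 2146 reads for the spleen pair and 7106 and 11368 for the lymph node pair, with a log2 fold change of 0.31 between genotypes and 18.1% of its reads uniquely placed. Eno2, the neuronal enolase gene, had 94 and 45, and 28 and 12 reads (-0.97), and Eno4 had 0. Of 19 tested genes of the enolase and glycolysis list, Eno3 among them, edgeR called 0 between genotypes, 2 (Eno3 and Pgk1) had an unadjusted p below 0.05 and DESeq2 called 0. Over all genes these shares were 0.144%, 4.88% and 0.45%. The 2 genes were 10.5% of the list, but this contrast chose Eno3, so only Pgk1 was not picked from it. The median log2 fold change of the 18 others was 0.26. Ldha, Aldoa and Pkm2, abundant glycolytic genes, had 0.19, 0.21 and 0.27.

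Other very long genes had smaller genotype differences than Ttn. Of 53 other listed giant genes, 36 were tested, edgeR called 0 between genotypes, 6 had an unadjusted p below 0.05 and DESeq2 called 0. Their median log2 fold change was -0.16, with 5 genes (13.9%) higher and 19 (52.8%) lower in both tissues, compared with 27.7% and 29.2% of all genes. The 6 at an unadjusted p below 0.05 were 16.7% of the list, compared with 4.88% of all genes. Over all genes edgeR called 0.144% and DESeq2 0.45%. Macf1, Akap13, Ahnak and Huwe1, the most abundant of them, had log2 fold changes of -0.53, 0.16, 0.38 and -0.41. The extremes, singled out after their values were seen, were Dst, which encodes the linker protein dystonin, at 0.66 and Dmd, the dystrophin gene, which is also a muscle gene, at -1.91.

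**Figure D5:**
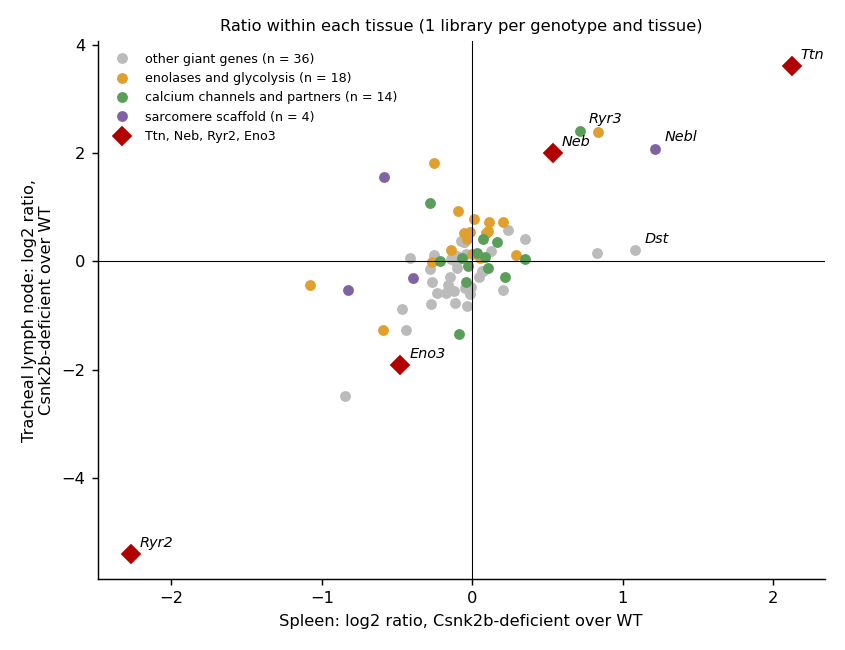
Log2 ratio of Csnk2b-deficient over WT in lymph node Tregs (y axis) against that in spleen Tregs (x axis), 1 point per tested gene of 4 lists (colour), with the 4 muscle-type genes as diamonds. Ttn lies at 2.12 and 3.62 and Ryr2 at -2.27 and -5.42 (spleen, then lymph node), and most other giant genes lie close to the origin.

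The difference between tissues was not used to choose the genes and could be tested, although tissue and library kit may go together. Eno3 was higher in lymph node than in spleen Tregs, by 1.85 ± 0.36 on the log2 scale (SE, n = 2 per tissue, edgeR adjusted p = 0.00172), and it was higher in both genotypes, by 2.53 in WT and 1.09 in Csnk2b-deficient Tregs. In this contrast 45.4% of all genes were called, 23.3% higher and 22.2% lower in lymph node Tregs, so a call was common. Of the 19 enolase and glycolysis genes tested, Eno3 among them, 11 rose and 2 fell, with Eno1 at 2.53 and Ldha at 2.61. The Eno3 adjusted p ranged from 1.55e-07 to 0.124 over 11 alternatives: the call was lost without the genotype term (adjusted p = 0.0586), without WT replicate 1 (0.0805) and without Csnk2b-deficient replicate 1 (0.124). Without WT replicate 2 the difference was 0.85.

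Ttn, Neb and Ryr2 did not pass this test, with log2 differences of -0.56 ± 0.31, -0.73 ± 0.32 and 1.07 ± 0.88 (SE, n = 2 per tissue) and edgeR adjusted p-values of 0.173, 0.0845 and 0.344. With no filter on low counts Ttn and Neb passed (adjusted p = 0.0275 and 0.00536), and Neb also without Csnk2b-deficient replicate 2 (0.00733). Over 11 alternatives the adjusted p ran from 0.0275 to 0.986 for Ttn, from 0.00536 to 0.909 for Neb and from 0.0547 to 0.784 for Ryr2. Within WT Tregs Ttn was 1.34 lower and Neb 1.47 lower on the log2 scale in lymph node Tregs, and within Csnk2b-deficient Tregs the differences were 0.15 and -0.0081. Ryr2 was higher in the WT lymph node by 2.23 and lower in the Csnk2b-deficient lymph node, at -0.91. Whether the genotype changed the tissue difference was not tested, because 1 library per cell of the design leaves no degrees of freedom for it. Of the 36 other giant genes tested 28 fell and 0 rose in lymph node Tregs, compared with 22.2% and 23.3% of all genes. Their median was -1.17, compared with -0.17 over all genes. The differences of Ttn (-0.56) and Neb (-0.73) were smaller falls than that median of other giant genes. Capn3 rose by 1.73 ± 0.30 in the same contrast (edgeR adjusted p = 0.000661), and of calcium channel genes Ryr3 fell by 2.28 and Itpr3 by 3.41.

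The genes whose profile over the 4 libraries was closest to each of the 4, by Euclidean distance of centred log2 CPM among genes with at least 5 CPM on average, are a description of 4 points. For Ttn they were Il1rl1 (distance 0.86), Myadm, B3gat2, Gm7592 and Casp4 (1.00). For Neb they were Pros1 (0.14), a feature named Gm14296, Rp2h, Ncapg2 and Rnf157 (0.21). Those of Ryr2 were farther off: Arhgap20 (1.30), Gm9825, Oas2, Caprin2 and Zcchc24 (1.94). Eno3 was closest to Dhrs7b (0.25), Afp, Ppic, Fanci and Nhedc2 (0.355). No other of the 4 genes was among the 5 nearest of any.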

How the data were processed

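Ttn, Neb, Ryr2, Eno3 and the gene lists were chosen with earlier results of these data known. The authors deposited 1 gene table per library with raw counts of total, unique, exon-exon and intron-exon reads per gene, and median coverage as a signal, per the file headers. The submitters' processing notes name CASAVA 1.8.2 and mm9. For the aligner, annotation and strandedness no tool or setting is named, and reads of a gene and an antisense partner cannot be told apart. The labels' protocols give Trizol with TruSeq for samples 1 and 2 and RNeasy with SMARTer then Nextera XT for samples 3 and 4; the libraries behind these numbers are not named. The labels do not say how Csnk2b was deleted or whether animals were pooled, so p-values may measure technical spread.

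Total exon counts of all 4 libraries were fitted with edgeR 4.0.16 (R 4.3.3), quasi-likelihood, TMM scaling, filterByExpr and terms for tissue and genotype, with Benjamini-Hochberg adjustment over 11113 genes at 0.05. This left 1 residual degree of freedom. Replicate number and tissue coincide in the labels, so the tissue term is also the block, and same-numbered libraries deviated together (correlation 0.783, equal for both numbers by construction). DESeq2 1.42.0, other scalings, filters and left-out libraries were alternatives, and the fit was tested on simulated data. Genes named beyond Ttn, Neb, Ryr2, Eno3 and Csnk2b were those of each list past a threshold and its 4 most abundant, the 5 nearest profiles and overlapping features. Other list members, such as Tcap, Nebl, Ryr1 and marker genes, were named after their values were seen, and the exon-density classes, coverage range and non-unique junction shares were also chosen then. Density ratios add 0.5 reads to exon and intron counts. Intervals cover counting error only.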

Additional observations from a re-analysis of the deposited data

How the results depend on the processing

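Between genotypes 16 genes were called over all genes, 4 with DESeq2-type size factors (median of ratios), 111 with no filter, 7 on uniquely placed reads and 50 with DESeq2, and 0 to 1 when 1 library was left out. Without the replicate block, which here is the tissue term, edgeR called 0 genes, with 29 at an unadjusted p below 0.05. Tissue calls ranged from 2186 to 7874 with 1 library left out. Such fits also drop the other term, and the lone library of an arm is assumed to vary like the rest. In them the genotype log2 fold change of Eno3 ran from -2.35 to 0.20, and the tissue differences from -2.82 to 1.36 for Ttn, -1.82 to 0.26 for Neb and -2.96 to 3.75 for Ryr2. The genotype values of Ttn, Neb and Ryr2 kept their direction in all 13 alternatives. That is no separate support, since the genotype contrast chose these genes and their genotypes did not overlap. The mean junction share of Ttn was 10.2% on all and 15.1% on unique reads. Upper-quartile scaling moved the median tissue difference over all genes from -0.17 to -0.32. The cause of these changes was not tested. With 3 and 9 Ryr2 reads in the Csnk2b-deficient libraries, depth limits its ratio and its splicing.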
